A study of Mus musculus with 31 samples.

Results

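Desmosome genes were followed in the mammary lesions of K5ΔNβcat mice and in sorted mammary basal cells, through the probe sets that carry their symbols in the annotation of the Affymetrix mouse genome array. The set was fixed by name and holds 10 genes, *Dsc2*, *Dsc3*, *Dsg2*, *Dsg3*, *Dsp*, *Pkp1*, *Pkp2*, *Pkp3*, *Evpl* and *Ppl*. The choice uses no threshold on the values, but it was made with earlier results of these data known. Of these, 9 had a probe set with 1 symbol, 22 probe sets in all among the 45037 of the array, and *Dsg3* was not analysed here.

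The 31 arrays, 1 per sample, cover mammary tissue of control mice (n = 4), small hyperplasias (n = 5), large hyperplasias (n = 5) and tumors (n = 11) of K5ΔNβcat mice, and basal cells sorted from control mice (n = 3) and from K5creMycL/L mice (n = 3). K5ΔNβcat mice express an N-terminally truncated, stabilised β-catenin from the keratin 5 promoter, which is active in the basal layer of the mammary gland and of other stratified epithelia. K5creMycL/L mice carry *Myc* alleles that a Cre recombinase deletes behind the same promoter, and no K5ΔNβcat transgene is named for them. According to the methods each sorted sample is a pool of several mice, gated as CD24-positive cells with high CD49f, so an array of that series gives the mean of a pool. The labels give the strain of all samples as C57BL6, and the methods describe a mixed background. Ages are not given for the array samples, and the labels do not say whether the tissue samples of a group came from separate animals. The p-values therefore measure the spread between these samples, which may in part be technical.

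Desmosomes are the junctions that fasten epithelial cells to each other and anchor their keratin filaments. Their adhesive parts are cadherins, the desmogleins and desmocollins, whose tails bind plakoglobin and the plakophilins inside the cell, and desmoplakin links this plaque to keratin. Simple epithelia rely mainly on *Dsg2*, *Dsc2* and *Pkp2*. Stratified epithelia such as epidermis add *Pkp1*, and they add *Dsc3* and *Dsg3* in the lower and *Dsc1* and Dsg1 in the upper layers. Envoplakin and periplakin, relatives of desmoplakin, join desmosomes and keratin to the cornified envelope of squamous cells.

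Values are MAS5 signals, a linear brightness per probe set that the authors scaled to the same trimmed mean on each array. The methods name 30 as the background cut-off, and between 46.2% and 51.9% of the probe sets of each tissue array, and between 38.5% and 42.8% for each array of sorted cells, reached it. Differences between groups are differences of mean log2(signal + 16) with the standard error of limma, and they understate the log2 ratio of dim signals in particular. A call required an adjusted p under 0.05 (Benjamini-Hochberg, over all probe sets tested in that comparison). Signals of different probe sets are not on a common scale, so no level is set against that of another gene. Where a gene had several probe sets, its values are those of the brightest, by mean log2 value over the tissue arrays or over the sorted arrays. Tissue and sorted cells were labelled with different kits and were not compared with each other. The labels were checked against markers: the summed signal of 6 adipocyte markers was 38935 to 42811 in control tissue and 654 to 6145 in tumors, and that of 11 pan-epithelial markers was 1328 to 2569 and 4102 to 7333. In sorted cells all 9 basal mammary markers had group means of at least 30, and 5 of 6 adipocyte and 4 of 6 leukocyte markers were below 30 in both groups. Of the other lists, only 1 of 9 luminal, 1 of 6 fibroblast and 0 of 6 endothelial markers were below 30 in both groups. The 9 basal markers also reached 30 in every tissue group, so this check does not measure the purity of the sorted cells. In whole tissue, fewer cells of a type and less RNA per cell cannot be told apart.

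Transcripts of the measured genes of the set were higher in every kind of lesion than in control tissue, with 1 exception. In tumors, 8 of the 9 measured genes rose and 1, *Pkp2*, fell, where 33.2% of the 24086 probe sets tested rose and 35.9% fell. Tumor and control signals did not overlap for any of the 9, as for 41.7% of all probe sets tested. In large hyperplasias again 8 rose and 1 fell (background 25.6% and 20.1%), with no overlap for any of the 9 (background 37.4%). In small hyperplasias 8 rose and 1 fell (background 16.8% and 14.4%), with overlap for 1 of the 9, *Evpl* (22.1% of all probe sets tested did not overlap). Over the 9 genes the median change on the log2 scale was 1.32 in small hyperplasias, 1.27 in large hyperplasias and 2.37 in tumors, beside -0.0004, 0.062 and -0.032 for all probe sets tested. These comparisons share the 4 control samples, so the agreement of their directions is not independent.

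**Figure D1:**
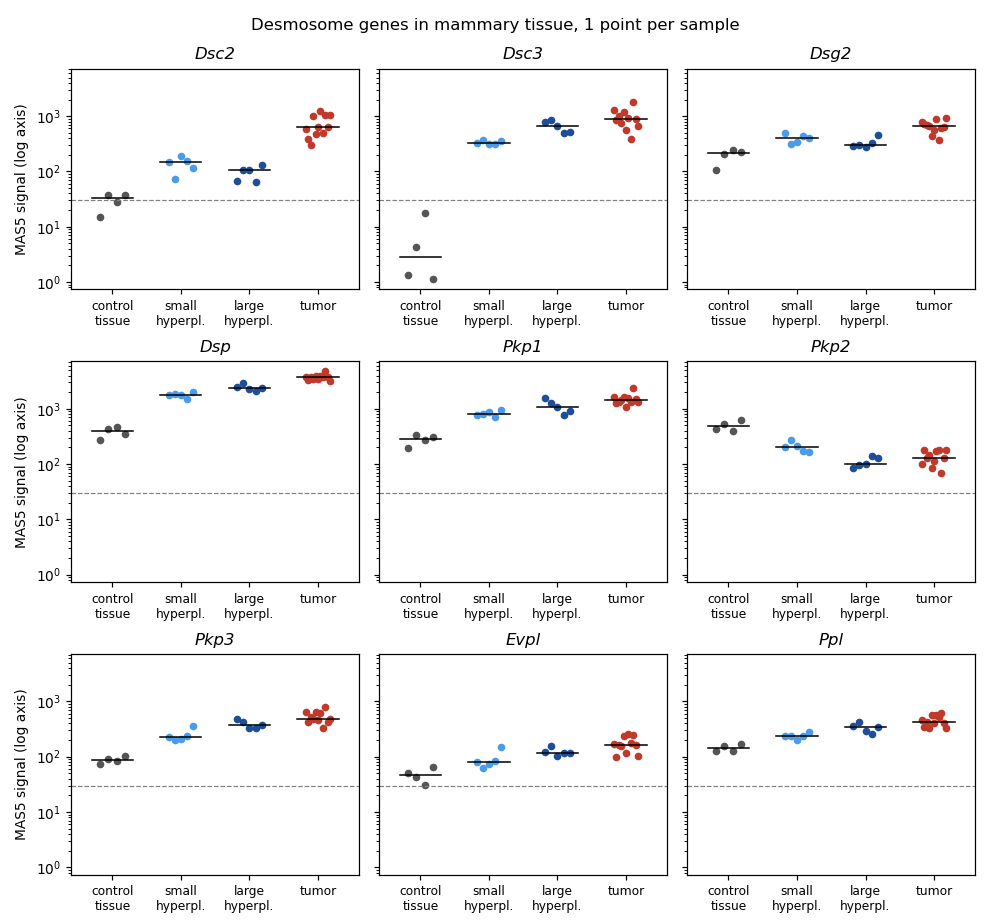
MAS5 signal (log axis) of the 9 measured desmosome genes in each of the 25 tissue samples, with the group median as a bar and the background cut-off of 30 as a dashed line. Dsc3 lies below the cut-off in all 4 control samples and between 311 and 1829 in lesions, Dsc2 is highest in tumors, and Pkp2 is highest in control tissue.

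Among the measured cadherins of the set, *Dsc3*, a desmocollin of the lower layers of stratified epithelium, changed most. Its signal was 1.33, 4.24, 18 and 1.11 in the 4 control samples, 327, 369, 311, 317 and 359 in small hyperplasias and 800.2, 856, 674, 501 and 525 in large hyperplasias, and in tumors it ran from 389 to 1829 with a median of 882. All control samples were below the background cut-off and all lesions far above it. Because control tissue gives only an upper limit, the rise was at least 11.2-fold in small hyperplasias, 21.9-fold in large hyperplasias and 29.1-fold in tumors, taking the mean log2 signal of the lesions over 30 (limma adjusted p = 2.1e-10, 2e-12 and 2.5e-15). Tumors and large hyperplasias overlapped, and their difference of 0.40 ± 0.24 missed the threshold (adjusted p = 0.15, 95% interval -0.085 to 0.89). The second *Dsc3* probe set, far dimmer in lesions and below the cut-off in all 4 control samples, was also higher in each kind of lesion than in control tissue, at least 3.22-fold in tumors, and it called the step from large hyperplasias to tumors at 0.60 (adjusted p = 0.044).

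*Dsc2*, the desmocollin found in most epithelia, took a different course. Control samples read 15.1, 38.3, 28.2 and 37.7, small hyperplasias 149, 73.4, 194, 156 and 117 and large hyperplasias 68.5, 106, 105, 64.7 and 130.5, whereas tumors ran from 297 to 1258 with a median of 629.6. Every tumor lay above every hyperplasia, and the hyperplasias of both sizes overlapped. The log2 difference from control tissue was 1.72 ± 0.33 in small hyperplasias, 1.27 ± 0.33 in large hyperplasias and 3.90 ± 0.29 in tumors. Only 2 of the 4 control samples reached the cut-off, and with signals floored at 30 these differences were 1.96, 1.44 and 4.26, all called. Tumors exceeded large hyperplasias by 2.62 ± 0.27 (adjusted p = 2.8e-08), a 7.52-fold ratio of mean signals, while large and small hyperplasias differed by -0.45 ± 0.32 (adjusted p = 0.38). Its second probe set moved the same way, by 2.29 from large hyperplasias to tumors. In the RefSeq gene order *Dsc3* and *Dsc2* are neighbours on chromosome 18, next to *Dsc1*.

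*Dsg2*, the desmoglein of simple epithelia and of basal cells, changed less. It read 107, 206, 241 and 221 in control tissue, 507, 316, 342, 433 and 397 in small hyperplasias and 293, 299, 279, 322 and 452 in large hyperplasias, and tumors ran from 377 to 939.9 with a median of 673. The difference from control tissue was 1.02 ± 0.23, 0.75 ± 0.23 and 1.71 ± 0.20 in the same order. Tumors exceeded large hyperplasias by 0.96 ± 0.18 (adjusted p = 0.00012) with overlapping samples. Without control sample 1, the lowest, the difference in large hyperplasias was 0.51 and was no longer called (adjusted p = 0.067). Of its 5 other probe sets, 2 rose in both kinds of hyperplasia, 1 was tested there and not called, and 2 had medians below the cut-off there. In tumors 4 of the 5 rose, by 0.44 to 1.39.

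*Dsp* encodes desmoplakin, the obligate link between the desmosomal plaque and keratin filaments. Control samples gave 269.6, 433, 472 and 353, small hyperplasias 1746, 1818, 1742, 1489 and 1999.9, large hyperplasias 2530.4, 2919.7, 2314, 2122 and 2358, and tumors ran from 3159 to 4788 with a median of 3744. No 2 of the 4 groups overlapped, and the order was control tissue, small hyperplasia, large hyperplasia, tumor. The differences from control tissue were 2.18 ± 0.13, 2.65 ± 0.13 and 3.26 ± 0.11, the last a 9.79-fold ratio of mean signals (adjusted p = 8e-18). Tumor signals varied less for *Dsp*, with an SD of 11.4% of the mean, than for any other measured desmosome gene, for which it was 22.6% (*Ppl*) to 44.7% (*Dsc2*). Both other *Dsp* probe sets rose in each kind of lesion, by 3.43 and 3.46 in tumors.

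Since *Dsp* was the gene that separated all 4 tissue groups, its promoter is shown, the only one of the 10 genes that the RefSeq promoter table lists. The window runs from 250 bases before to 50 bases after the transcription start, at chr13:38151044-38151343 on the plus strand of GRCm38.p6, and capitals mark the matches described after it.
*Dsp* promoter: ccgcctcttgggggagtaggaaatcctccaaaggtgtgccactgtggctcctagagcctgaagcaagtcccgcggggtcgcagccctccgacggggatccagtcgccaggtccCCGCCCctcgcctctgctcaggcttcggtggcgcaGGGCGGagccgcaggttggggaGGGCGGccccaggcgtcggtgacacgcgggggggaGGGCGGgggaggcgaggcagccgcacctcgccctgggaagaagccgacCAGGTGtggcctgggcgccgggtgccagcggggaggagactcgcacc
The window holds 73.0% G and C, where the median over 32851 promoters of the table is 52.7%. The GC box GGGCGG, searched on both strands, occurs 4 times, and 35.7% of all promoters hold at least 1. The letters CAGGTG, an E-box of the kind bound by Snail factors, occur 1 time, as in 20.2% of promoters. The AP-1 motif TGANTCA, the TCF/LEF motif CTTTGA and the E-box CACGTG were searched on both strands and have no match in these 300 bases, and 7.81%, 16% and 7.15% of promoters hold them. The matches do not overlap each other, and they describe letters only.

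The plakophilins, which cross-link cadherin tails and desmoplakin in the plaque, split. *Pkp1*, the plakophilin of stratified epithelium, read 196, 332, 268 and 309.6 in control tissue, 758, 802, 869, 717 and 966 in small hyperplasias and 1561, 1294, 1099, 787 and 895 in large hyperplasias, and from 1094 to 2428 with a median of 1459.9 in tumors. *Pkp3*, which occurs in most epithelia, read 72.6, 89.5, 82.3 and 105 in control tissue, 230.1, 199.6, 208, 234 and 363 in small and 485, 418, 332, 325 and 373 in large hyperplasias, and from 324 to 792 with a median of 488 in tumors. For both genes every lesion was above every control sample. In tumors the difference from control tissue was 2.38 ± 0.17 for *Pkp1* and 2.37 ± 0.17 for *Pkp3*.

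*Pkp2*, the plakophilin of simple epithelia and of heart muscle, moved the other way. It read 429, 529, 394 and 616 in control tissue, 202, 268, 215, 172 and 167 in small hyperplasias and 83.8, 95.6, 101, 142 and 131 in large hyperplasias, and tumors ran from 69.4 to 184 with a median of 128. Every control sample was above every lesion, and large hyperplasias and tumors overlapped. Relative to control tissue *Pkp2* fell by 1.20 ± 0.22, 2.00 ± 0.22 and 1.78 ± 0.19 on the log2 scale in small hyperplasias, large hyperplasias and tumors (limma adjusted p = 0.0002, 7.5e-08 and 9e-09). Its other 2 probe sets above the cut-off fell as well, by 2.69 and 1.25 in tumors. Between tumors and large hyperplasias its probe sets disagreed in sign, at 0.22 and -0.25, and neither was called. Adipocyte and endothelial markers fell beside it: 6 of 6 markers of each list were lower in tumors, with a median of -6.42 for adipocytes and -1.28 for endothelium. Summed endothelial signals went from 1486 to 1712 across control samples down to 879 to 1371 (small hyperplasias), 602 to 796 (large hyperplasias) and 444 to 887 (tumors). The part of any of these cell types in the fall of *Pkp2* was not tested.

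Of the plakins of the cornified envelope, *Evpl* (envoplakin) read 50.9, 43.7, 30.8 and 64.1 in control tissue, 79.9, 61.7, 73.5, 82.6 and 151 in small hyperplasias and 121, 156, 104, 118 and 118 in large hyperplasias, and tumors ran from 97 to 252 with a median of 166. For *Ppl* (periplakin) the signals were 129, 155, 128 and 171 in control tissue, 234, 237, 199, 237 and 275 in small and 360.3, 423, 298, 258 and 339.8 in large hyperplasias, and tumors ran from 329.6 to 620.2 with a median of 418. Both genes were higher in every tumor and every large hyperplasia than in any control sample. The 2 genes moved by nearly the same amount, 0.71 and 0.64 in small hyperplasias, 1.15 and 1.11 in large hyperplasias, and 1.53 and 1.51 in tumors, with standard errors of 0.15 to 0.24. *Evpl* in small hyperplasias (adjusted p = 0.026) was the weakest of these calls. Without small hyperplasia 5, without control sample 2 or without control sample 3 it was lost, at 0.53, 0.69 and 0.57 (adjusted p = 0.083, 0.056 and 0.098).

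**Figure D2:**
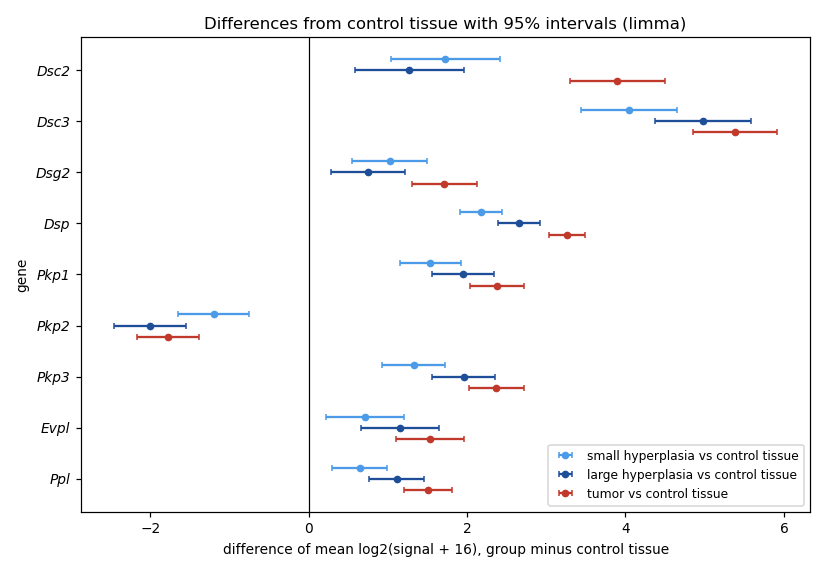
Difference from control tissue in mean log2(signal + 16), with 95% intervals of limma, for each measured desmosome gene in small hyperplasias, large hyperplasias and tumors. Dsc3 shows the highest values (4.05 to 5.39), Pkp2 alone lies below 0, and the tumor value of Dsc2 (3.90) stands apart from its values in hyperplasias.

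Pan-epithelial marker transcripts also differed between lesions and control tissue: of the 11 pan-epithelial markers, 8 rose in small hyperplasias, 10 in large hyperplasias and 9 in tumors, with medians of 0.78, 0.89 and 1.54. The desmosome genes were therefore also compared after subtracting from each array the mean log2 value of these 11 markers. On that scale *Dsc3* remained higher in tumors by 4.04, *Dsc2* by 2.55, *Dsp* by 1.92, *Pkp1* by 1.03, *Pkp3* by 1.03 and *Dsg2* by 0.37, all 6 called, where 3.59% of all probe sets were called higher and 86.5% lower. *Evpl* at 0.19 and *Ppl* at 0.17 were not called on that scale (adjusted p = 0.39 and 0.37). *Pkp2* was at -3.13, and its larger fall follows from the subtraction, which lowers the tumor difference of every gene by the same amount. In large hyperplasias 4 genes remained higher (background 2.32%), *Dsc3* (3.92), *Dsp* (1.59), *Pkp3* (0.89) and *Pkp1* (0.89), while *Dsc2* was at 0.21 (adjusted p = 0.51) and *Dsg2* at -0.31 (adjusted p = 0.11). In small hyperplasias 5 remained (background 1.38%), *Dsc3*, *Dsp*, *Dsc2*, *Pkp1* and *Pkp3*. This scaling moves the median of all probe sets in tumors to -1.38 by its construction, with 864 called higher and 20836 lower in place of 8002 and 8650.

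Tumors were next set against hyperplasias. Against large hyperplasias, 6 of the 9 genes rose and 0 fell, where 21.0% of 23747 probe sets rose and 32.9% fell. The largest step was that of *Dsc2* (2.62 ± 0.27), followed by *Dsg2* (0.96 ± 0.18), *Dsp* (0.61 ± 0.10), *Pkp1* (0.43 ± 0.15), *Pkp3* (0.41 ± 0.16) and *Ppl* (0.40 ± 0.14). Only *Dsc2* and *Dsp* showed no overlap between the 11 tumors and the 5 large hyperplasias, against 23.2% of all probe sets tested. Relative to the epithelial markers 2 calls remained, *Dsc2* (2.35) and *Dsg2* (0.68), with 6.08% of all probe sets called higher and 45.4% lower. The calls of *Pkp1*, *Pkp3* and *Ppl* were all lost without large hyperplasia 4, at 0.31, 0.36 and 0.31. Those of *Pkp1* and *Pkp3* were lost also without large hyperplasia 5, and that of *Pkp3* without large hyperplasia 3. After quantile normalization *Pkp1* (0.28, limma adjusted p = 0.12) and *Pkp3* (0.36, adjusted p = 0.061) were lost and *Evpl* was gained (0.46, adjusted p = 0.049). With the methods' t-test, adjusted, *Pkp1* was lost (adjusted p = 0.11). Against small hyperplasias 8 genes rose and 1, *Pkp2*, fell (background 24.4% and 29.6%), from 2.17 for *Dsc2* and 1.34 for *Dsc3* to 0.69 for *Dsg2*, with *Pkp2* at -0.58.

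Between large and small hyperplasias 3 genes rose and 1 fell, where 5.01% of 23456 probe sets rose and 4.62% fell. *Dsc3* was higher in large hyperplasias by 0.93 ± 0.28, *Pkp3* by 0.63 ± 0.18 and *Dsp* by 0.47 ± 0.12, and *Pkp2* was lower, at -0.80 ± 0.21 (adjusted p = 0.034, 0.03, 0.016 and 0.015). The samples of both sizes did not overlap for *Dsc3*, *Dsp* and *Pkp2*, 3 of the 9, against 9.40% of all probe sets tested. The other probe sets of *Dsc3* (0.36), *Pkp3* (0.54) and, in 1 case, *Pkp2* (-0.17) did not call this step. Each of the 4 calls was lost when 1 sample was left out. For *Dsp* this happened without large hyperplasia 2 or small hyperplasia 4, for *Pkp2* without large hyperplasia 1, for *Dsc3* without large hyperplasia 1, 2 or 3 or small hyperplasia 1, 3 or 4, and for *Pkp3* without large hyperplasia 1 or 2 or small hyperplasia 1, 2, 3 or 4. Log2 differences stayed at 0.84 to 0.92 for *Dsc3*, 0.55 to 0.62 for *Pkp3*, 0.41 for *Dsp* and -0.72 for *Pkp2* in those fits.

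The other parts of the desmosome were taken from a list of 9 genes, of which 7 had a probe set. In tumors 5 rose, 1 fell and 1 was not called against control tissue, and the median was 3.21. It became 2.65 when the genes below the cut-off in control tissue were set to their bounds. *Dsc1*, the desmocollin of the upper epidermal layers, was below the cut-off in control tissue (15.9, 2.76, 2.62 and 0.213) and ran from 895 to 3135 with a median of 2042 in tumors, a rise of at least 56.8-fold. It read 374, 168, 385, 288 and 547 in small and 305, 578, 378, 334 and 433 in large hyperplasias, so that all tumors were above all hyperplasias, by 2.07 ± 0.29 against the large ones (adjusted p = 2.1e-06). The desmogleins of the same layers rose at least 18.5-fold (*Dsg1a*) and 6.27-fold (*Dsg1b*) in tumors. Transcripts of near-identical desmoglein copies can cross-hybridise, so these 2 values are less certain.

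*Perp*, a membrane protein of desmosomes in stratified epithelium, rose by 3.63 ± 0.15 in tumors, from 162, 311, 292 and 237 in control tissue to 2639 to 4858. *Jup*, which encodes plakoglobin, the plaque protein shared with adherens junctions, rose only by 0.48 ± 0.15 (adjusted p = 0.0076), with 316, 304, 211 and 347 in control tissue and from 298 to 631 with a median of 394 in tumors, and the groups overlapped. *Pkp4*, a plakophilin relative found mainly at adherens junctions, was lower in tumors at -0.64 ± 0.15 (adjusted p = 0.00077). *Cdsn*, the corneodesmosome protein of the cornified layer, was 0.66 ± 0.31 and missed the threshold (adjusted p = 0.059). In large hyperplasias *Dsc1*, *Dsg1a*, *Dsg1b* and *Perp* rose and 0 of the 7 fell, and in small hyperplasias 3 of 6 tested rose, *Dsc1*, *Dsg1a* and *Perp*, and 0 fell.

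Keratins of basal and stratified epithelium, the filaments that desmosomes anchor, were higher in tumors for 9 of 9 genes, with a median of 5.46 and *Krt6b* (at least 195-fold) and *Krt1* (at least 104-fold) showing the largest differences. Keratins of simple epithelium did not follow: of 4, none rose and *Krt19* was lower at -1.61. Of 14 cornified envelope genes 12 were tested and all 12 rose, with a median of 5.35, or 5.07 with 8 of them at their bounds, with *Sprr1b* at least 75.2-fold higher. *Cst6* was at 6.83 on the log2 scale, with 3 of its 4 control samples below the cut-off. Adherens junction genes changed less, 7 of 9 higher and 1 lower with a median of 0.73, among them *Cdh1* (2.29) and *Nectin4* (1.83, with 3 of 4 control samples below the cut-off). Of 9 basal mammary markers 5 rose and 4 fell, with *Oxtr* at -3.47 and *Krt14* at 3.69, and of 9 luminal markers 1 rose and 5 fell, with *Foxa1* at -3.31 and *Esr1* at -2.35. The pan-epithelial list, with 9 of 11 higher, was led by *Esrp2* (2.38) and *Cdh1*.

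Markers of other tissues moved beside the desmosome genes. Among adipocyte markers *Cidec* was at -7.25 and *Retn* at -6.62 in tumors, with 8 and 4 of the 11 tumors below the cut-off, and among endothelial markers *Tek* was at -2.20 and *Kdr* at -1.65. Of 6 fibroblast markers 2 rose and 1 fell, with *Dcn* at -1.54 and *Col1a1* at 1.09. In large hyperplasias 6 of 6 leukocyte markers rose, with a median of 1.19. In tumors 2 of the 5 tested rose, *Itgam* (1.17) and *Ptprc* (1.09). Of 4 skeletal muscle markers tested 2 rose and 1 fell, with *Acta1* at -1.97 and *Mylpf* at least 2.70-fold higher, and their sum reached 3440.2 in 1 tumor. Their part in the desmosome results was not tested.

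Whether related genes shifted against each other was tested within each array, as the difference of their log2(signal + 16), so that a factor common to a whole array largely cancels. Groups were compared by two-sided exact permutation tests, 12 in all, with p-values adjusted over the 12. Only the change of such a difference between groups can be read, since probe sets have different scales. *Dsc3* over *Dsc2* was -1.07 ± 0.57 (SD, n = 4) in control tissue, 2.64 ± 0.51 (n = 5) in large hyperplasias and 0.42 ± 0.84 (n = 11) in tumors. It rose by 3.71 from control tissue to large hyperplasias (exact p = 0.00794, adjusted p = 0.0136) and fell by 2.22 from large hyperplasias to tumors (exact p = 0.000229, adjusted p = 0.00275), without overlap in either case. In control tissue *Dsc3* was below the cut-off in all 4 samples and *Dsc2* in 2, so the size of the first change depends on the offset: it was 3.01 with signals floored at 30, 5.94 without an offset and 1.94 with the mean over probe sets. Tumors remained above control tissue by 1.49 (exact p = 0.00733, adjusted p = 0.0136), a difference that did not hold when signals were floored at 30 (0.60), without control sample 4 (1.30) or with the mean over the probe sets of a gene (-0.023).

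*Pkp1* over *Pkp2* went from -0.80 ± 0.25 in control tissue to 3.15 ± 0.67 in large hyperplasias and 3.36 ± 0.64 in tumors. Both lesion groups lay entirely above control tissue, by 3.95 (exact p = 0.00794, adjusted p = 0.0136) and 4.16 (exact p = 0.000733, adjusted p = 0.00293). *Pkp3* over *Pkp2* changed likewise, by 3.96 and 4.15 with the same p-values. These p-values, and that of 0.000229 for *Dsc3* over *Dsc2*, are the smallest that the group sizes allow. From large hyperplasias to tumors neither ratio moved past the threshold, with 0.20 (exact p = 0.573, adjusted p = 0.8) and 0.19 (exact p = 0.6, adjusted p = 0.8). *Evpl* over *Ppl* differed by 0.022, 0.042 and -0.020 in the 3 comparisons, with SDs of 0.17 to 0.24 within groups and an adjusted exact p of 0.87 in each. With no offset, or with signals floored at 30, the first 2 of these were 0.22.

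**Figure D3:**
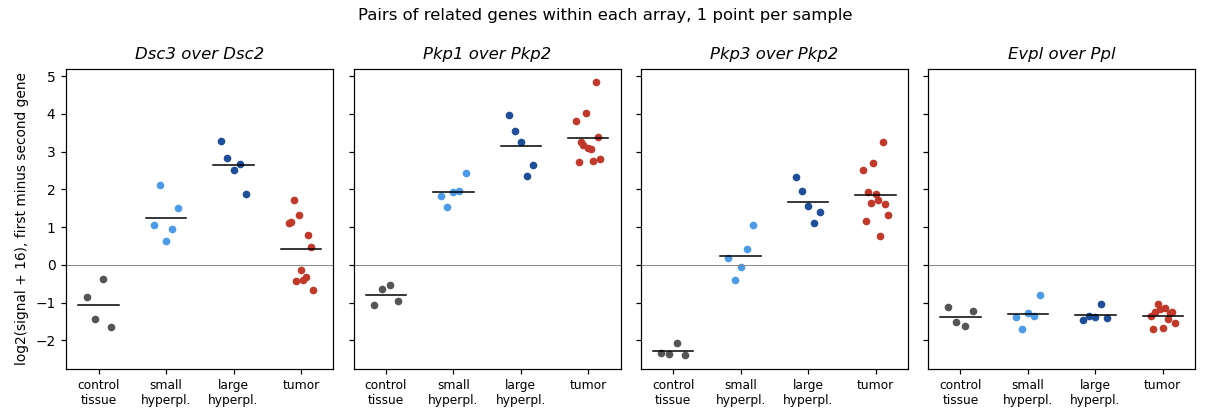
Difference of log2(signal + 16) between 2 related genes on the same array, 1 point per sample with the group mean as a bar, in control tissue, small hyperplasias, large hyperplasias and tumors. Dsc3 over Dsc2 peaks in large hyperplasias (mean 2.64) and is lower in every tumor, both plakophilin ratios are above control tissue in all lesions, and Evpl over Ppl stays between means of -1.37 and -1.33 in the 3 groups tested.

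Tumors also differed among themselves. Correlations of log2(signal + 16) over the 11 tumors were computed for the 36 pairs of the 9 genes, with permutation p-values adjusted over the 36. Of these, 26 were positive and 10 negative, and 11 passed the threshold by Pearson's r and 7 by Spearman's rho, each of the 7 also among the 11. Desmoplakin went with both other plakins. *Dsp* with *Evpl* had r = 0.85, rho = 0.89 (adjusted permutation p = 0.0035 and 0.0094), *Dsp* with *Ppl* had r = 0.86, rho = 0.86 (adjusted permutation p = 0.0025 and 0.013), and *Evpl* with *Ppl* had r = 0.88, rho = 0.93 (adjusted permutation p = 0.0035 and 0.0043). Without the 2 tumors farthest from the median of the first gene, r was 0.94, 0.85 and 0.84. Of the 36 pairs only *Dsp* with *Evpl* still passed after this, with an adjusted p of 0.0072 over 9 tumors by permutation.

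*Dsc3* went with *Pkp3*, at r = 0.90, rho = 0.85 (adjusted permutation p = 0.0035 and 0.013), and r was 0.71 without the 2 farthest tumors. *Pkp2* ran against *Pkp3*, at r = -0.74, rho = -0.75 (adjusted permutation p = 0.031 and 0.049), and against *Dsc3*, at r = -0.73, rho = -0.75 (adjusted permutation p = 0.033 and 0.049). Without the 2 farthest tumors, 5 and 9 for *Pkp3* and 8 and 9 for *Dsc3*, r was weaker at -0.48 and -0.47. Neither passed over the 9 tumors left (adjusted permutation p = 0.39 for each). *Dsc2*, the gene with the largest spread over the tumors, had no pair past the threshold, and its r with *Dsc3* was 0.10 (adjusted permutation p = 0.81). In 27 further relations, adjusted together, each gene was set against the mean of the pan-epithelial, cornified envelope and fibroblast lists. With the cornified envelope mean, *Dsp* had r = 0.86, *Dsc3* 0.80, *Ppl* 0.79, *Evpl* 0.77, *Pkp3* 0.75 and *Pkp2* -0.73, with adjusted permutation p of 0.022 to 0.041. By Spearman's rho only *Dsc3* passed, at 0.90 (adjusted permutation p = 0.0092), and without the 2 farthest tumors none of the 27 did. With the pan-epithelial mean *Pkp3* alone passed (r = 0.73, adjusted permutation p = 0.041), and with the fibroblast mean no gene had an unadjusted permutation p under 0.05.

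**Figure D4:**
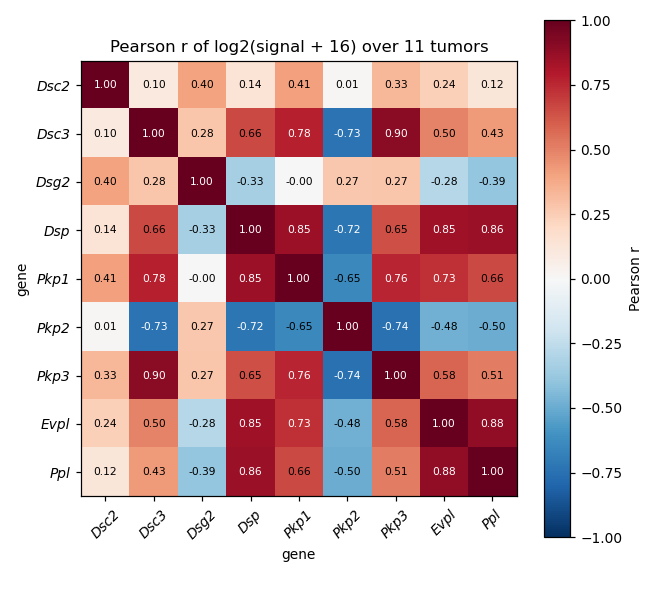
Pearson's r of log2(signal + 16) over the 11 tumors for each pair of measured desmosome genes, written in each cell and shown on a colour scale from -1 to 1. Dsp, Evpl and Ppl correlate at 0.85 to 0.88 with each other, Pkp2 is negative with Dsc3, Dsp, Pkp1 and Pkp3, and the row of Dsc2 stays at 0.41 or below.

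Over all 25 tissue arrays, the genes whose pattern was most like that of *Dsp*, among 8565 genes with a median of at least 100 in 1 tissue group, were *Perp* (r = 0.994), *Lgals7* (0.991), *Krt14* (0.987), *Asprv1* (0.986) and *S100a14* (0.986). For *Dsc3* they were *Perp* (0.988), *Cldn1* (0.981), *S100a14* (0.977), *Lgals7* (0.975) and *Krt17* (0.974). The genes of the desmosome set themselves were left out of the genes searched, so their likeness to each other was not ranked. *Lgals7* encodes galectin-7 of stratified epithelium, *Asprv1* a protease of the upper epidermis, and *Cldn1* a tight junction protein. These values describe arrays that share the 4 groups, and most of their spread lies between groups.

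In sorted basal cells the question was whether loss of *Myc* moves desmosome genes. *Myc* itself read 1479, 1677 and 1869.5 in control pools and 141, 428 and 42.3 in *Myc*-deficient pools, lower in all 3 of the latter, although whether its probe set lies in the deleted part was not checked. Of the 9 desmosome genes 7 were tested, and 0 were called in either direction, where 0% and 0% of 19737 probe sets were called higher and lower by limma (533 and 726 at an unadjusted p under 0.05). The *Myc* probe set itself was therefore not called either. In simulated data with the spread of these arrays, the same fit recovered only 2% of 2-fold and 58% of 4-fold rises. The lack of calls thus says little about changes of 2-fold. The groups overlapped for all 7, and 12.1% of all probe sets tested did not overlap. *Pkp2* and *Evpl* stayed below a group median of 30, at 24.5, 6.44 and 4.46 and 28.5, 7.53 and 2.1 in control pools, and were not tested.

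*Dsp* gave 4242, 4157 and 5283 in control and 4664, 6766 and 5644 in *Myc*-deficient pools (difference 0.31 ± 0.19, 95% interval -0.10 to 0.72), and its 2 other probe sets gave -0.069 and -0.15. *Pkp1* gave 880.0, 1344 and 634 against 1096, 1494 and 652, *Pkp3* 179.7, 173 and 236 against 138, 190.2 and 250.4 and *Ppl* 75.7, 26.9 and 42.7 against 113, 66 and 38.6, with differences of 0.17 ± 0.34, -0.046 ± 0.35 and 0.44 ± 0.47. *Dsp* and *Pkp1* were higher in the *Myc*-deficient pool of all 3 same-numbered pairs, and with the replicate number as a block neither was called (adjusted p = 0.39 and 0.74). The desmocollins varied most between the *Myc*-deficient pools. *Dsc2* read 184, 156 and 151 in control and 76.7, 28.4 and 161 in *Myc*-deficient pools, and *Dsc3* 231, 197 and 140.2 and 78.7, 27.6 and 315. Both were lowest in *Myc*-deficient pool 2, the pool with the highest *Myc* signal of the 3, and in pool 3 *Dsc3* was above all controls. The differences were -0.99 ± 0.48 (adjusted p = 0.79) and -0.86 ± 0.60 (adjusted p = 0.83), with an opposite sign (0.65) for the second *Dsc2* probe set. Without pool 2 they were -0.48 and -0.19. *Dsg2* was 0.79 ± 0.31 (adjusted p = 0.75), but its 5 other probe sets lay between 0.059 and 0.19. *Dsc1*, *Dsg1a*, *Dsg1b* and *Cdsn*, which mark the upper layers of stratified epithelium, had group means below 30 in both kinds of pool, as had 10 of 13 cornified envelope genes. The interval for *Dsc3*, -2.15 to 0.43, includes changes of more than 2-fold.

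**Figure D5:**
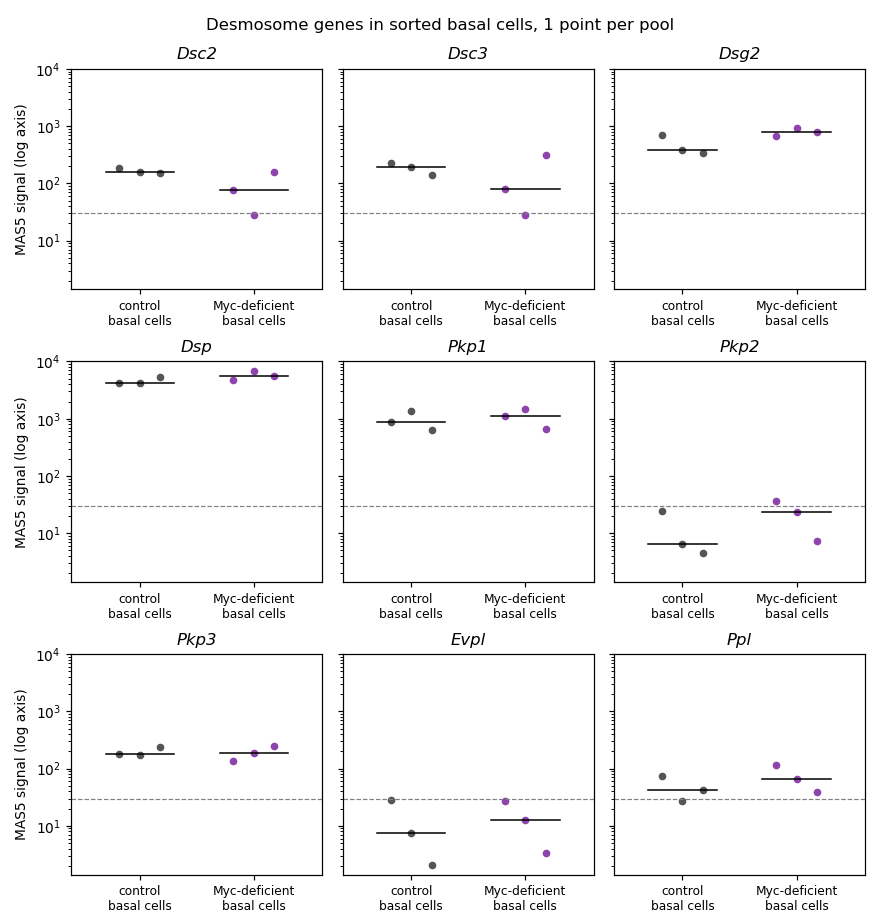
MAS5 signal (log axis) of the 9 measured desmosome genes in each pool of sorted basal cells, with group medians as bars and the cut-off of 30 as a dashed line. The 3 control and 3 Myc-deficient pools overlap for every gene, and Pkp2 and Evpl lie below the cut-off except for Pkp2 in 1 Myc-deficient pool (36.9).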

How the data were processed

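RNA of 25 mammary tissue samples and of 6 pools of sorted basal cells was hybridised to Affymetrix mouse arrays. The deposited values are MAS5 signals, a linear intensity per probe set, made by the authors with Affymetrix Expression Console (version not given in the sources used here) and scaled on each array to a 2% trimmed mean of 100. Scaling of this kind fixes the total of an array, so a large change in cell types moves all other values. No normalization was added. Control probe sets (64) were left out, and of the 45037 others 34945 carry 1 gene symbol, 932 several and 9160 none in the array annotation, which can be old. The number of arrays limits the precision. The highest Spearman correlation between 2 arrays was 0.966, so no array was taken as a duplicate.

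Groups came from the sample labels. log2(signal + 16) was fitted with limma 3.58.1 in R 4.3.3 (lmFit, contrasts.fit, eBayes with trend), with the 25 tissue arrays in 1 model and the 6 sorted arrays in another. Probe sets entered a comparison if the larger of both group medians reached 30, and p-values were adjusted by Benjamini-Hochberg over all probe sets tested. The scripts were tested on simulated data with added rises of 2-fold and 4-fold. The fit recovered 91% and 97% of these in tumors against control tissue and 90% and 97% in tumors against large hyperplasias. In sorted cells it recovered 2% and 58%. Where a group lay below 30 on all arrays, a fold is given as a lower bound against 30. Ratios were compared by exact permutation and correlations by 100000 permutations, with Python 3.11.15.

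The text names all 10 genes and their probe sets where these differ, every other desmosome gene with a probe set, the 2 called genes of each further list with the largest difference in tumors against control tissue, and the 5 genes most correlated with *Dsp* and *Dsc3*. The members and lists were chosen with earlier results of these data known.

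Sorted samples with the same number deviated together from their group means (r = 0.226, 0.235 and 0.259 over 18905 probe sets, each highest with its own number), so the numbers, taken from the labels, were treated as pairs in an alternative fit. Other alternatives changed the offset, the filter, the normalization, the scale, the samples in the fit, the prior, the test, the call rule and the probe set of a gene, or left out 1 sample other than a tumor.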

Additional observations from a re-analysis of the deposited data

Results flagged for a closer look

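Of 27 combinations of a desmosome gene and a tissue group of 4 or 5 samples, 3 held a sample far from the others by Dixon's test, which chance alone does in about 1 of 20 groups. *Dsg2* read 451.6 in large hyperplasia 5, where the next sample read 322. *Pkp3* read 363 in small hyperplasia 5, where the next sample read 234. *Evpl* read 150.6 in the same small hyperplasia 5, where the next sample read 82.6. Without that sample the *Evpl* call in small hyperplasias against control tissue was lost, as given above.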

How the results depend on the processing

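All 9 calls in tumors against control tissue kept their direction under every alternative run, and they were lost only for *Evpl* and *Ppl*, on the scale relative to epithelial markers. On that scale the genes called higher were 4 in large hyperplasias (background 2.32%) and 5 in small hyperplasias (1.38%) against control tissue. They were 2 in tumors against large hyperplasias (6.08%) and 0 in large against small hyperplasias (0.269%). The sign turned there for *Dsg2* in large hyperplasias (-0.31), *Evpl* (-0.22) and *Ppl* (-0.29) in small hyperplasias and *Pkp2* in tumors against large hyperplasias (-0.056), and none of these 4 values was called. The methods' call rule, a ratio of group medians over 2, gave 5 higher in small hyperplasias against control tissue (background 6.51%), 2 higher in tumors against large hyperplasias (5.18%), 5 higher and 0 lower in tumors against small hyperplasias (6.76% and 9.99%), and 1 higher and 0 lower in large against small hyperplasias (2.33% and 1.33%). In *Myc*-deficient pools it gave 1 higher (*Dsg2*) and 2 lower (*Dsc2* and *Dsc3*), with 7.27% and 8.56% of all probe sets, where limma called 0. The methods' t-test with adjustment gave 0 higher and 0 lower in large against small hyperplasias, where 220 and 198 of 23456 probe sets were called. The mean over probe sets gave 0 lower there, where 1085 of 23465 were called lower.

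With 1 hyperplasia left out, the genes called higher numbered 3 to 6 in tumors against large hyperplasias and 0 to 4 in large against small hyperplasias, with 0 to 1 lower in the latter. In the same fits, 4536 to 4633 of the 23702 to 23823 probe sets tested were called higher in the former comparison. In the latter, 513 to 1455 were called higher and 685 to 1245 lower, of 23412 to 23577 tested. No tumor was left out in any fit or ratio test, so these ranges do not cover the dependence on single tumors. *Dsc3* over *Dsc2* in tumors against control tissue fell to 0.60 (adjusted p = 0.299) once signals were floored at 30 and to -0.023 (adjusted p = 0.962) for the mean over probe sets. It lay at 1.30 to 1.72 when a control sample was left out, the lowest without control sample 4 (adjusted p = 0.0565), all by exact permutation. *Pkp1* over *Pkp2* in tumors against large hyperplasias was -0.043 after quantile normalization. *Evpl* over *Ppl* ranged from -0.062 to 0.11 in tumors against control tissue, from -0.042 to 0.13 in large hyperplasias against control tissue and from -0.053 to 0.054 in tumors against large hyperplasias with 1 sample left out. After quantile normalization it was -0.047 and 0.11 in the last 2 comparisons, and without an offset or with a floor it was 0.0015 in the last and 0.22 in the first 2, not past the threshold. In *Myc*-deficient pools, *Pkp1* ranged from -0.10 to 0.49 with 1 pool left out, turning sign without *Myc*-deficient pool 2 or control pool 3, and *Pkp3* from -0.24 to 0.15, turning sign without *Myc*-deficient pool 1 or control pool 3. *Pkp3* there was 0.051 relative to epithelial markers and 0.023 with the mean over probe sets. The pairs of genes correlated in tumors were 6 after quantile normalization and 1 without the 2 farthest tumors. The cause of these changes was not tested.

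With the replicate number as a block, the paired fit changed no call in sorted cells. In tissue, same-numbered samples did not deviate together (r from -0.15 to 0.11), and the block moved 4 calls: *Dsc3* was gained in tumors against large hyperplasias (0.60, adjusted p = 0.014), *Pkp1* (0.41, adjusted p = 0.071) and *Ppl* (0.32, adjusted p = 0.07) were lost there, and *Ppl* was gained in large against small hyperplasias (adjusted p = 0.036). Numbers 6 to 11 occur only among tumors, so the block takes up those samples. The tumor differences of the block fit therefore rest on tumors 1 to 5. Signals below 30 limit what could be measured for *Dsc3* and *Dsc2* in control tissue and for *Pkp2* and *Evpl* in sorted cells.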

Other observations

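The same search for similar patterns, over 8565 genes and the 25 tissue arrays, was run for *Dsc2* and *Pkp2*, a choice made after their values were seen. A higher level in tumors than in hyperplasias of either size was not particular to *Dsc2*. Mean signals in small hyperplasias, large hyperplasias and tumors were 399, 329 and 665 for *Dsg2* and 353, 406 and 1870 for *Dsc1*. The patterns most like *Dsc2* were those of *Hif1a* (r = 0.971), which encodes the oxygen-regulated subunit of a hypoxia transcription factor, *Hsd17b7* (0.966), an enzyme of cholesterol synthesis, *Vav3* (0.965), *Sat1* (0.965), an enzyme of polyamine breakdown, and *Pmaip1* (0.965), a death-promoting member of the Bcl-2 family. For *Pkp2* they were *Tspo* (0.928), a protein of the outer mitochondrial membrane, *Shroom4* (0.904), *Acp5* (0.900), a phosphatase of osteoclasts and macrophages, *Creld1* (0.895) and *Robo4* (0.894), a receptor of endothelial cells. *Hif1a* averaged 664 in control tissue, 1193 in small hyperplasias, 1156 in large hyperplasias and 3379 in tumors. *Robo4* averaged 169, 93.4, 54.8 and 45.3 in the same order. These are descriptions of arrays that share 4 groups, and no test was made on them.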
